A study of Homo sapiens with 6 samples.

Results

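The genes described here are 31 members of the sterol regulatory element-binding protein (SREBP) programme of lipid synthesis, picked by gene symbol from the deposited count and FPKM tables. They fall into a sterol arm of 19 genes, a fatty acid arm of 8 genes and 4 genes of the SREBP machinery itself. All 31 were found among the 32353 genes of the count table, and all 31 were among the 17887 genes that passed the filter on low counts. The cells were CAL27, an established line from a squamous cell carcinoma of the human tongue. In 3 libraries the cells overexpressed RBM24, an RNA-binding protein that acts on splicing and mRNA stability, and in the other 3 they had been given a control plasmid. Total RNA was sequenced as 150-nt read pairs, with no drug, serum or sterol treatment named in the labels. The labels name no plasmid backbone, promoter or time after transfection. Nor do they tell if each replicate had a culture of its own, so every p-value refers to the spread among these libraries alone, which may be technical.

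The libraries held 68804210, 53558773 and 60589183 counts in RBM24 cells, against 56105482, 55139782 and 62156648 counts in control cells. RBM24 itself had 8651, 5918 and 7648 counts in the RBM24 libraries, against 129, 159 and 220 counts in the control libraries, a log2 fold change of 5.34 (SE 0.0995), so the labels and the overexpressed gene went together. All 7 squamous epithelial markers examined (KRT5, KRT14, KRT6A, KRT17, EPCAM, CDH1 and TP63) were tested and none was called, with summed levels of 354, 355 and 363 FPKM in RBM24 cells, against 327, 333 and 330 FPKM in control cells. The hepatocyte marker ALB had at most 9 counts in any library, the adipocyte marker ADIPOQ at most 1 and the leukocyte marker PTPRC at most 3. Of the other lists, 1 hepatocyte, 1 adipocyte, 2 sebocyte, 4 fibroblast and 1 immune marker passed the filter and were tested, and none was called. APOB, LEP, LPL and AWAT1 had no counts listed. In PLIN1 and COL1A2 every RBM24 library was above every control library, and in LUM every one was below, all at 0.23 FPKM or less. Of the squamous markers, KRT6A (log2 fold change 0.14) and CDH1 (0.17) also had every RBM24 library above, and the others overlapped. Over all tested genes, every RBM24 library was above every control library in 9.53% and below in 8.62%. The summed levels of the adipocyte, sebocyte, fibroblast and immune lists stayed at or under 1.96 FPKM. The hepatocyte sum of 24.9 to 28.9 FPKM over the libraries was nearly all SERPINA1. In bulk RNA, fewer cells of a type and less RNA per cell cannot be told apart.

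SREBPs are transcription factors held in the endoplasmic reticulum membrane by the escort protein SCAP and the retention protein INSIG1 while sterols are plentiful. When sterols fall, SCAP carries them to the Golgi, where proteases free the part that enters the nucleus and binds sterol elements, usually beside CCAAT or GC boxes. SREBF2 mainly drives the genes that turn acetyl-CoA into cholesterol, and SREBF1 mainly drives those that make, elongate and desaturate fatty acids. Squamous carcinoma cells, like other dividing cells, use both products for membranes.

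Promoter windows of 300 bases, from 250 before to 50 after the start, were found for 27 of the 31 genes in a RefSeq table on GRCh38.p14. The set below is shown because windows of this kind are where SREBPs and their partner NF-Y are known to act. It holds the window of the regulator SREBF2, those of HSD17B7 and HMGCS1, whose log2 fold changes were the most negative among the enzymes, and that of FADS1, the member with the highest log2 fold change. Capitals mark matches on either strand to the sterol element TCACNCCAC and to the inverted CCAAT box ATTGG. The windows lie at chr22:41832855-41833154 (plus strand), chr1:162790452-162790751 (plus strand), chr5:43313363-43313662 (minus strand) and chr11:61816954-61817253 (minus strand), and each reads 5′ to 3′ along its gene.
SREBF2: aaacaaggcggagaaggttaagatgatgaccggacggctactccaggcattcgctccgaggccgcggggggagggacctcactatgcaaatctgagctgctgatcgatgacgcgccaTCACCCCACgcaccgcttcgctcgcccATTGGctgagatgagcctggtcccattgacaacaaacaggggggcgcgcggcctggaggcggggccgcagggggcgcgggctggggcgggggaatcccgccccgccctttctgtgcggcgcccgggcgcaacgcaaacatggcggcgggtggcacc
HSD17B7: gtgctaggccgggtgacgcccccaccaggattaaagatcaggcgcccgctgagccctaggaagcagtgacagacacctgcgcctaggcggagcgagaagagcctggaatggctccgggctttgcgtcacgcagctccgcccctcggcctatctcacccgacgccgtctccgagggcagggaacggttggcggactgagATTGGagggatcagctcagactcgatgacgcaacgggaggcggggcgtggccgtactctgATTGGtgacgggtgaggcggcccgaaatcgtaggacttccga
HMGCS1: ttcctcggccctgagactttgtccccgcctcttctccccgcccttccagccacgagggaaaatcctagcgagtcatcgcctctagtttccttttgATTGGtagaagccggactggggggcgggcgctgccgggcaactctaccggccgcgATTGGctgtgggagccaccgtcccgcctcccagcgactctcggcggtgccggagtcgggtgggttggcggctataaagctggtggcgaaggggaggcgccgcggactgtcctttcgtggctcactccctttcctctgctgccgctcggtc
FADS1: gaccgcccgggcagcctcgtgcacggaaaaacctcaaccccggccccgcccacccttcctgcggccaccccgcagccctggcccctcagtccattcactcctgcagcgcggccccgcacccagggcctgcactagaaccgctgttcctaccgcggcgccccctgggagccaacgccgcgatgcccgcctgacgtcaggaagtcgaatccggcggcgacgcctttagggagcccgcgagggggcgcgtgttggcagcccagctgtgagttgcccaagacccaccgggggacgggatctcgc
The SREBF2 window holds the sterol element as TCACCCCAC, 133 bases before the start, followed by an ATTGG. The HSD17B7 and HMGCS1 windows shown hold 2 ATTGG boxes each and no exact sterol element, and the FADS1 window holds neither. HMGCS1 has another window, at chr5:43313132-43313431, which also holds neither.

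Over the 27 genes, the exact sterol element was in the window of 1 gene, SREBF2 (3.70%), while 1.39% of all 27305 genes in the table held it. With 1 mismatch allowed, 14 of the 27 genes (51.9%) held it, against 28.2% of all genes. The ATTGG box was in 21 of the 27 genes (77.8%), and in 39.7% of all genes. The GC box GGGCGG was in 26 of the 27 (96.3%), and in 48.3% of all genes. The E-box CACGTG, which SREBPs can also bind, was in the windows of 4 genes, INSIG1, LSS, SC5D and SCAP (14.8%), and in 8.77% of all genes. These are matches of letters in 1 window size, and no binding was measured in the tables used here. The shares of all genes were not limited to the tested genes or matched for base composition, so the contrasts may not be particular to this programme.

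Levels between genes are given in FPKM, which the authors had divided by gene length. The genes of the programme were expressed over a wide range, most of them above the middle of the tested genes. SCD, the desaturase that makes oleic acid from stearic acid, had the highest level in control cells, with 66.1, 68.3 and 70.4 FPKM in RBM24 libraries, against 67.4, 62.3 and 70.1 FPKM in control libraries. FDPS, the farnesyl diphosphate synthase at the branch towards sterols and prenyl groups, had 56.7, 57.9 and 56.1 FPKM in RBM24 libraries, against 60.5, 61.4 and 58.9 FPKM in control libraries. EBP, an isomerase of the late sterol steps, had 63.9, 63.1 and 57.4 FPKM in RBM24 libraries, against 59.8, 62.9 and 57.0 FPKM in control libraries. The FPKM of SCD and EBP overlapped between the groups, while every RBM24 library was below every control library for FDPS. In control cells FDPS (60.3 ± 1.29 FPKM) and EBP (59.9 ± 2.97 FPKM) differed by less than the spread of EBP (SD, n = 3 each), so their order is not set by these libraries.

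**Figure D1:**
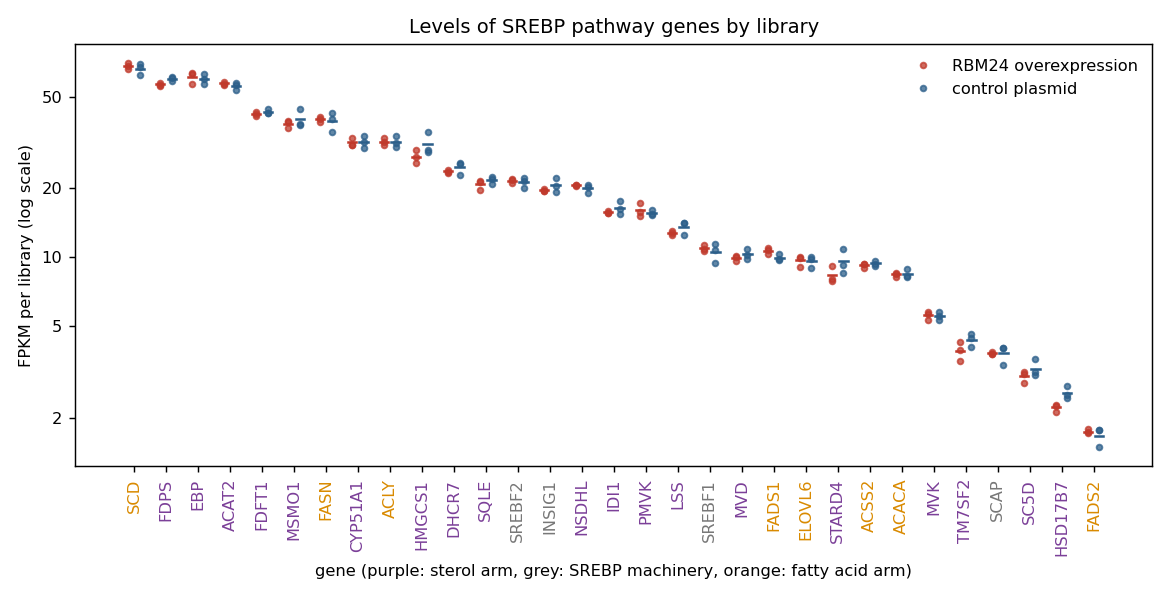
Deposited FPKM (log axis) of the 31 genes in 3 RBM24 and 3 control libraries, with the RBM24 points drawn beside the control points of the same gene. The levels ran in control cells from 66.6 FPKM for SCD to 1.67 FPKM for FADS2, and the points of the groups lay close together for every gene.

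Below these 3, the thiolase ACAT2 (57.4 ± 0.990 FPKM in RBM24 cells, 55.9 ± 2.02 FPKM in control cells) and squalene synthase FDFT1 (42.3 ± 0.723 FPKM in RBM24 cells, 43.2 ± 1.16 FPKM in control cells) were next. The methylsterol oxidase MSMO1 and the fatty acid synthase FASN followed, at 38.4 ± 1.36 and 40.1 ± 1.13 FPKM in RBM24 cells, against 40.1 ± 3.67 and 39.4 ± 3.75 FPKM in control cells. The spreads of MSMO1 and FASN overlapped in both groups. At the low end were the sterol desaturase SC5D (3.03 ± 0.172 FPKM in RBM24 cells, 3.27 ± 0.278 FPKM in control cells), the keto-sterol reductase HSD17B7 (2.22 ± 0.0839 FPKM in RBM24 cells, 2.57 ± 0.171 FPKM in control cells) and the desaturase FADS2 (1.74 ± 0.0361 FPKM in RBM24 cells, 1.67 ± 0.156 FPKM in control cells). By control FPKM, SCD was at percentile 96.9 of the tested genes and FADS2 at percentile 44.6. SREBF2 (21.6 ± 0.476 FPKM in RBM24 cells, 21.3 ± 1.11 FPKM in control cells) had about the level of INSIG1 (19.7 ± 0.225 FPKM in RBM24 cells, 20.6 ± 1.46 FPKM in control cells). SREBF1 was lower, at 11.0 ± 0.324 FPKM in RBM24 cells and 10.6 ± 1.02 FPKM in control cells, and SCAP lower again, at 3.83 ± 0.0289 FPKM in RBM24 cells and 3.82 ± 0.361 FPKM in control cells.

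None of the 31 genes was called higher or lower with RBM24 by edgeR's quasi-likelihood test at a Benjamini-Hochberg adjusted p under 0.05. Over all tested genes, 153 were called higher (0.855%) and 122 lower (0.682%), so a count of 0 in a list of 31 is near the background. Scaled by total counts alone, 223 genes were called higher and 106 lower, and again 0 of the 31. DESeq2 and limma-voom also called 0 of the 31. At an unadjusted p under 0.05 there were 6 of the 31, with a negative log2 fold change in each, and 2330 of all tested genes (13.03%). These 6 were HSD17B7, HMGCS1, STARD4, TM7SF2, LSS and FDPS, all of the sterol arm. The log2 fold change, RBM24 over control, was negative for 23 of the 31 genes (74.2%) and for 51.4% of all tested genes. The median over the 31 was -0.04, and over all tested genes -0.0037. The 95% intervals of the 31 log2 fold changes lay between -0.41, for HSD17B7, and 0.17, for FADS2.

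**Figure D2:**
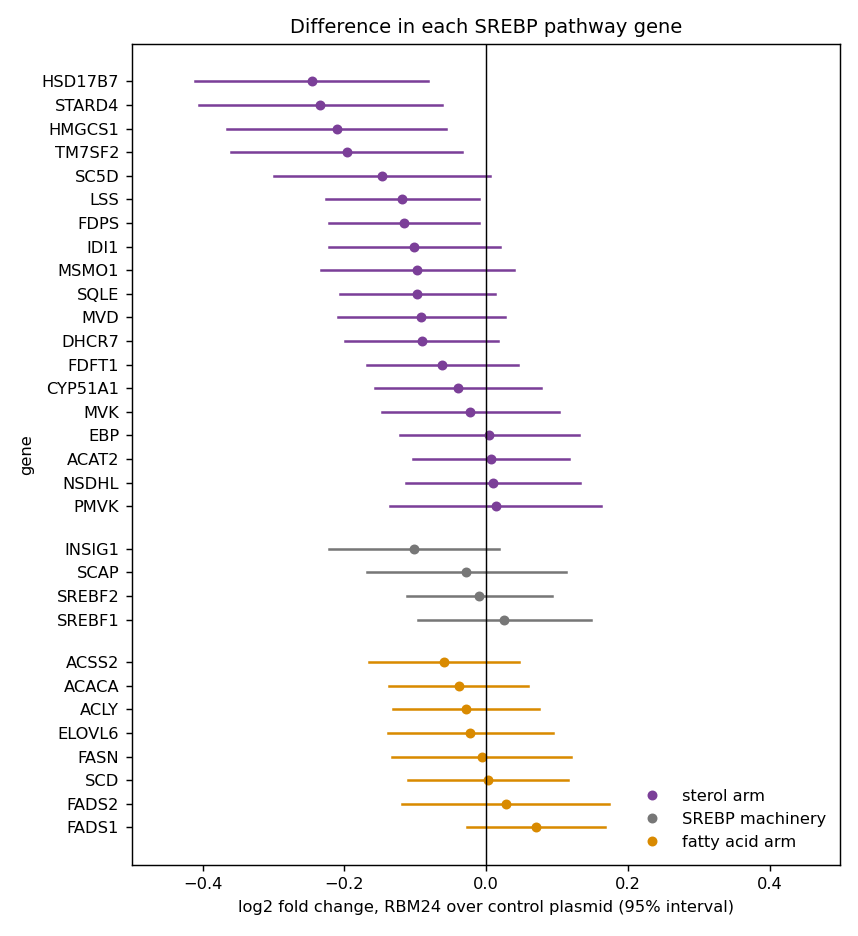
Log2 fold change of RBM24 over control for each of the 31 genes, with its 95% interval from edgeR, grouped by arm. Most points of the sterol arm lie below 0, down to -0.25 for HSD17B7, while the fatty acid arm and the SREBP machinery lie on both sides of 0. No gene was called at an adjusted p under 0.05.

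The sterol arm held the most negative values. Its median log2 fold change was -0.10, with 15 of 19 genes negative, 0 called and a range from -0.25 to 0.01. By position in the pathway, the 7 mevalonate genes had a median of -0.09 with 5 negative, and the 11 genes from squalene to cholesterol a median of -0.10 with 9 negative. In 7 of the 19 (36.8%) every RBM24 library was below every control library, and in none was every RBM24 library above. Over all tested genes the groups did not overlap with RBM24 below in 8.62% and with RBM24 above in 9.53%. The 7 were HSD17B7, HMGCS1, LSS, FDPS, SC5D, SQLE and IDI1. Over all 31 genes, 9 had every RBM24 library below (29.03%), the other 2 being ACSS2 and ACACA of the fatty acid arm, and 1 had every RBM24 library above.

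HMGCS1, on chromosome 5 at 43289395 to 43313512 (GRCh38, GENCODE 29), makes hydroxymethylglutaryl-CoA, the precursor of mevalonate. In CPM (counts scaled to the library total and its TMM factor), it had 185, 194 and 206 CPM in RBM24 libraries, against 259, 210 and 208 CPM in control libraries. The control library of replicate 1 stood high, and the third RBM24 library lay just under the third control library, so the groups separated narrowly. The log2 fold change was -0.21 (SE 0.0731), with an adjusted p of 0.203 by edgeR's quasi-likelihood test. Without control replicate 1 the log2 fold change was -0.10.

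HSD17B7, on chromosome 1 at 162790702 to 162812817, reduces the keto group left during removal of the sterol methyl groups. It had 11.7, 11.5 and 10.8 CPM in RBM24 libraries, against 14.7, 12.8 and 12.9 CPM in control libraries. Every RBM24 library was below every control library, and control replicate 1 was the highest of them. Its log2 fold change of -0.25 (SE 0.0776) was the most negative of the 31, with an adjusted p of 0.152 by edgeR's quasi-likelihood test, and it was -0.18 without control replicate 1. A transcribed pseudogene of nearly the same name, HSD17B7P2, had 19, 10 and 17 counts in RBM24 libraries, against 30, 16 and 16 counts in control libraries. These amount to 2.45% of the HSD17B7 counts, and how reads that fit both were shared is not stated in any source used.

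STARD4, on chromosome 5 at 111496033 to 111512590, encodes a soluble carrier that moves cholesterol between membranes. It had 48.1, 48.9 and 55.5 CPM in RBM24 libraries, against 69.2, 53.8 and 56.4 CPM in control libraries. The groups overlapped, and control replicate 1 was again the highest library. The log2 fold change was -0.23 (SE 0.0811), with an adjusted p of 0.203 by edgeR's quasi-likelihood test, and -0.12 without control replicate 1. With no filter on low counts, edgeR called HMGCS1 and STARD4 lower (adjusted p 0.00917 and 0.00573). These were the only calls of the 31 genes under any setting tried.

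TM7SF2, on chromosome 11 at 65111845 to 65116384, is a sterol reductase acting after lanosterol demethylation. It had 14.4, 15.5 and 12.9 CPM in RBM24 libraries, against 15.5, 16.7 and 16.8 CPM in control libraries. The second RBM24 library and the first control library were level, and the others separated. The log2 fold change was -0.20 (SE 0.0769), with an adjusted p of 0.275 by edgeR's quasi-likelihood test. It was -0.23 without control replicate 1 and -0.13 without RBM24 replicate 3, its lowest library.

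LSS, the cyclase that forms lanosterol, had 97.4, 99.2 and 100.04 CPM in RBM24 libraries, against 100.9, 112 and 109 CPM in control libraries, a log2 fold change of -0.12 (SE 0.0508). FDPS had 227, 230 and 222 CPM in RBM24 libraries, against 251, 252 and 233 CPM in control libraries, also a log2 fold change of -0.12. Neither was called (adjusted p 0.326 and 0.327, edgeR), and neither had control replicate 1 as its highest library. Without that library LSS was at -0.16 and FDPS at -0.10. It was the lowest control library of LSS, so leaving it out could not make that difference smaller. Without control replicate 2, the highest library of both, LSS was at -0.08 and FDPS at -0.10. SC5D had 30.6, 33.3 and 33.7 CPM in RBM24 libraries, against 40.2, 34.0 and 33.9 CPM in control libraries (log2 fold change -0.15). Squalene epoxidase, SQLE, had 91.1, 97.7 and 98.9 CPM in RBM24 libraries, against 107, 99.02 and 101 CPM in control libraries (-0.10). The isomerase IDI1 had 72.3, 71.6 and 72.8 CPM in RBM24 libraries, against 84.7, 72.9 and 74.8 CPM in control libraries (-0.10). In SC5D, SQLE and IDI1 the nearest libraries of the groups nearly touched, and the first control library stood above the rest. Without it SC5D was at -0.06, SQLE at -0.07 and IDI1 at -0.03, and SQLE was at -0.06 without RBM24 replicate 1.

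The other sterol arm genes had overlapping groups. DHCR7, the last reductase of a route to cholesterol, and the decarboxylase MVD had log2 fold changes of -0.09 each. Without control replicate 2 both were smaller, at -0.06 for DHCR7 and -0.05 for MVD. MSMO1 was at -0.10, but at -0.0059 without control replicate 1. FDFT1 was at -0.06, and at -0.03 without control replicate 1. The lanosterol demethylase CYP51A1 was at -0.04 and mevalonate kinase MVK at -0.02. The remaining 4, PMVK, NSDHL, ACAT2 and EBP, were between 0.0046 and 0.01. In EBP the libraries had 122, 119 and 108 CPM in RBM24 libraries, against 118, 123 and 107 CPM in control libraries. The spread of EBP within each group was larger than the difference between the groups.

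The SREBP machinery showed no call and small differences, with a median log2 fold change of -0.02 over the 4 genes. SREBF1, on chromosome 17 at 17810399 to 17837002, had 100.4, 96.0 and 93.7 CPM in RBM24 libraries, against 86.6, 98.1 and 100.4 CPM in control libraries (log2 fold change 0.03, SE 0.0576). SREBF2, on chromosome 22 at 41833079 to 41907308, had 172, 178 and 175 CPM in RBM24 libraries, against 169, 180.1 and 179 CPM in control libraries (-0.0095, SE 0.0482). SCAP, on chromosome 3 at 47413694 to 47477126, had 25.8, 25.9 and 25.5 CPM in RBM24 libraries, against 23.8, 27.9 and 27.0 CPM in control libraries (-0.03, SE 0.0664). For SREBF1, SREBF2 and SCAP the first control library was the lowest of all 6 and the groups overlapped. INSIG1, on chromosome 7 at 155297776 to 155310235, is a retention protein and is itself a known SREBP target. It had 76.7, 77.7 and 76.1 CPM in RBM24 libraries, against 90.2, 77.5 and 79.6 CPM in control libraries (-0.10, SE 0.0568). Its groups overlapped by a small margin, and its highest value was in the first control library, as for HMGCS1 and STARD4, and its log2 fold change was -0.03 without that library. The adjusted p of these 4 genes lay between 0.479 and 0.959 (edgeR). The 95% intervals of SREBF1 (-0.10 to 0.15) and SREBF2 (-0.11 to 0.09) bound the difference in the mRNA of both factors.

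The fatty acid arm had a median log2 fold change of -0.01, with 5 of 8 genes negative and 0 called. FADS1, the desaturase that makes arachidonic acid, on chromosome 11 at 61799625 to 61829318, had 114, 118 and 119 CPM in RBM24 libraries, against 110.9, 111 and 113 CPM in control libraries. It was the only gene of the 31 with every RBM24 library above every control library. The log2 fold change was 0.07 (SE 0.0461), with an adjusted p of 0.557 by edgeR's quasi-likelihood test. ACSS2, which turns acetate into acetyl-CoA, on chromosome 20 at 34872146 to 34927962, had 53.1, 52.4 and 50.1 CPM in RBM24 libraries, against 53.9, 54.1 and 54.1 CPM in control libraries. ACACA, the acetyl-CoA carboxylase that commits carbon to fatty acids, on chromosome 17 at 37084988 to 37406818, had 115, 118 and 119 CPM in RBM24 libraries, against 119.3, 119.2 and 123 CPM in control libraries. In both every RBM24 library was below every control library, by small margins, with log2 fold changes of -0.06 (SE 0.0502) and -0.04 (SE 0.0463). ACSS2 was at -0.04 without RBM24 replicate 3, and ACACA at -0.02 without control replicate 3.

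ACLY, the citrate lyase that supplies acetyl-CoA to both arms, had 174, 176 and 183 CPM in RBM24 libraries, against 175, 182 and 187 CPM in control libraries (log2 fold change -0.03, SE 0.0487). SCD had 373, 382 and 393 CPM in RBM24 libraries, against 394, 360.2 and 391.96 CPM in control libraries (0.0027, SE 0.0533). The groups of ACLY and SCD overlapped. FASN had 412, 402 and 385 CPM in RBM24 libraries, against 367, 413 and 424 CPM in control libraries, a log2 fold change of -0.0064. The elongase ELOVL6 was at -0.02 and FADS2 at 0.03, both with overlapping groups. The adjusted p of the 8 genes lay between 0.557 and 0.992 (edgeR), and their 95% intervals between -0.17 and 0.17. By gene coordinates FADS1 and FADS2 overlap on opposite strands over 29694 bases, and FADS2 overlaps FEN1 on the same strand over 4265 bases. FEN1 averaged 179 CPM against 19.5 CPM of FADS2. Whether counting used strand is not stated in any source used, so the counts of FADS1 and FADS2 are uncertain.

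**Figure D3:**
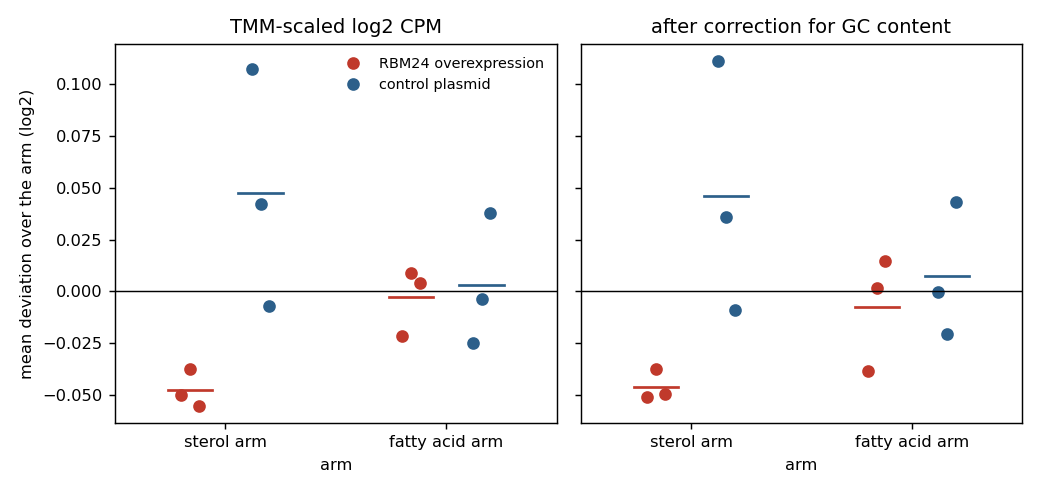
Mean deviation of each arm per library, in log2 CPM from each gene's mean over the 6 libraries. The 3 RBM24 libraries of the sterol arm sit between -0.06 and -0.04, and its control libraries spread from -0.0072 to 0.11.

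The arms were also compared as a mean per library, after each gene was set against its own mean over the 6 libraries. The sterol arm was at -0.05, -0.04 and -0.06 log2 CPM in RBM24 libraries, against 0.11, 0.04 and -0.0072 in control libraries. The fatty acid arm was at -0.02, 0.0086 and 0.0041 in RBM24 libraries, against -0.03, -0.0039 and 0.04 in control libraries. The RBM24 libraries of the sterol arm were close together and all below the control libraries, which spread more widely, while those of the fatty acid arm lay within the range of its control libraries. The difference between the group means was -0.10 for the sterol arm and -0.0059 for the fatty acid arm. Without control replicate 1 it was -0.07 for the sterol arm and -0.02 for the fatty acid arm. The sterol arm less the fatty acid arm was -0.03, -0.05 and -0.06 in RBM24 libraries, against 0.13, 0.05 and -0.04 in control libraries. On this scale the third control library lay among the RBM24 libraries. The difference between the groups was -0.09, and -0.05 without control replicate 1.

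The libraries did not move all members alike, and in control replicates 1 and 2 the deviations followed the base composition of the transcripts. Control replicate 1 was the highest of the 6 libraries for 13 of the 31 genes (41.9%), and for 23.2% of all tested genes. All 13 were among the 15 genes whose longest transcript had a GC content below the median of the 31, 50.5%. The other 2 of these 15 were FADS1 and ACACA. Of the 16 genes at or above that median, control replicate 1 was the highest for none and control replicate 2 for 10. In the sterol arm the split was complete, with 10 of 10 genes below the median and 0 of 9 at or above it highest in control replicate 1. Over all tested genes with a GC value, control replicate 1 was the highest for 33.9% of the 9910 below that GC content and for 9.54% of the 7717 at or above it. The log2 fold change was negative for 57.0% of these 9910 genes and for 44.4% of the 7717. Among the 31 it was negative for 12 of the 15 and 11 of the 16, and in the sterol arm for 9 of the 10 and 6 of the 9. This split was chosen after the values had been seen.

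**Figure D4:**
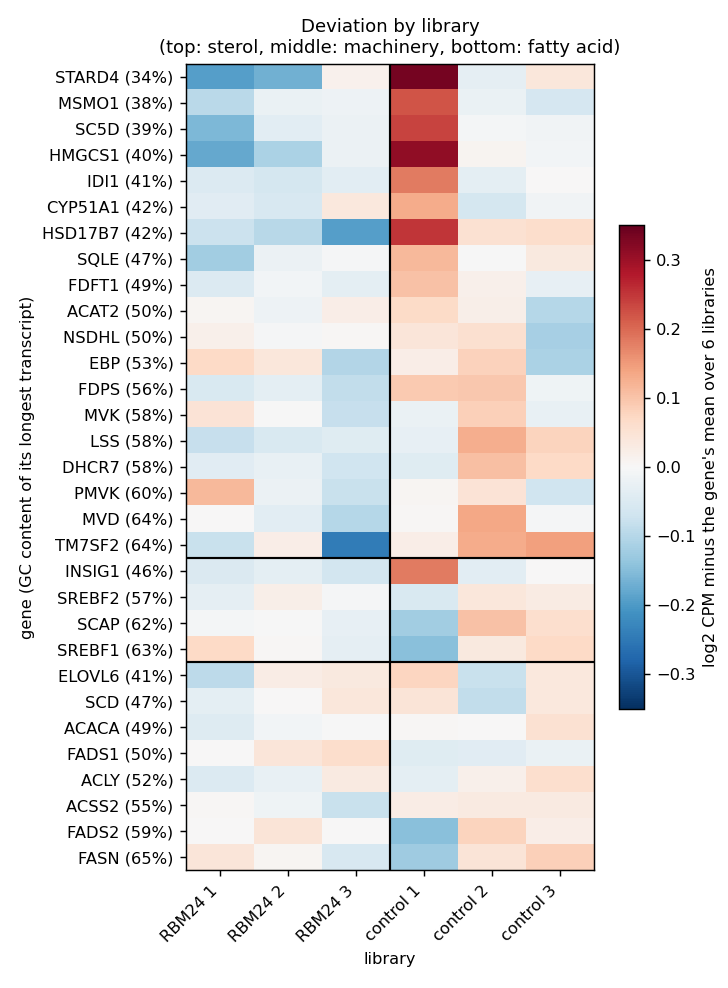
Deviation of each of the 31 genes from its own mean over the 6 libraries, in log2 CPM. Genes are ordered by GC content within each arm (sterol, machinery, fatty acid from the top), with RBM24 libraries left of control libraries. The first control library is high for the genes of low GC content, such as STARD4 and HMGCS1, and low for those of high GC content, such as FASN and SREBF1.

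STARD4, of the lowest GC content (34.2%), had the highest deviation in that library, and FASN, of the highest GC content (65.3%), had its own lowest value there. The Spearman correlation across the 31 genes between GC content and the deviation was -0.84 in control replicate 1, 0.78 in control replicate 2 and 0.29 in control replicate 3. In the RBM24 libraries it was 0.64, 0.47 and -0.44. Across all 17627 tested genes with a GC value the same correlations had the same sign as in the 31 genes, except in control replicate 3. They were 0.30, 0.22 and -0.19 in RBM24 libraries and -0.40, 0.29 and -0.11 in control libraries. With transcript length in place of GC content, the correlations across the 31 genes were -0.04, 0.25 and 0.50 in RBM24 libraries and -0.37, -0.31 and 0.53 in control libraries, so that in the third library of each group length tracked the deviations more closely than GC content did. Between GC content and the log2 fold change, the Spearman correlation was 0.41 across the 31 genes and 0.17 across all tested genes with a GC value. These correlations are across genes, which share their libraries and are not independent replicates.

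**Figure D5:**
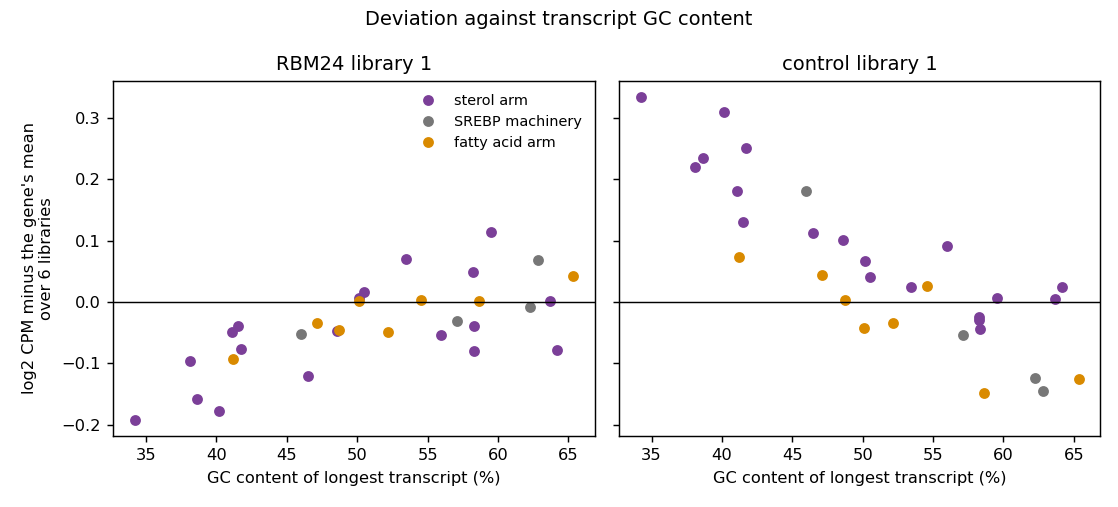
Deviation from each gene's mean over the 6 libraries (log2 CPM) against the GC content of its longest transcript in percent. The panels show RBM24 replicate 1 and control replicate 1, with 31 points in each. The points fall with GC content in control replicate 1 (Spearman -0.84) and climb with it in RBM24 replicate 1 (0.64).

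With each library's trend over GC content removed by a loess curve over all genes, an alternative chosen after seeing the data, the sterol arm was at -0.05, -0.04 and -0.05 in RBM24 libraries, against 0.11, 0.04 and -0.0090 in control libraries. The difference between the groups was -0.09, close to the uncorrected value. Of the 31 genes, 26 had a negative log2 fold change in that fit and 9 had an unadjusted p under 0.05, but none was called, with LSS nearest at an adjusted p of 0.0673 (edgeR). The correlation with GC content in control replicate 1 across the 31 genes was still -0.53 after that correction, and across all genes 0.0023. In control replicate 3 the correlation across the 31 genes rose from 0.29 to 0.51. It was 0.097 in control replicate 2, and 0.17, -0.11 and 0.11 in RBM24 libraries. The part of GC content in the sterol arm values was not tested beyond this.

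Other genes around the pathway were read from 4 lists of 54 genes, of which 53 were tested and 0 called in either direction. At an unadjusted p under 0.05 there were 4 of the 53 (7.55%), each with a negative log2 fold change, a share below the 13.03% of all tested genes. PLIN2, the lipid droplet coat protein, was not tested, with 0, 0 and 1 counts in RBM24 libraries, against 6, 5 and 1 counts in control libraries. The 10 genes of SREBP processing and sterol sensing had a median log2 fold change of -0.06, with 9 negative. ERLIN2 and ERLIN1, paired membrane proteins that bind the SREBP, SCAP and INSIG complex, had the smallest p. ERLIN2 had 36.5, 37.2 and 37.5 CPM in RBM24 libraries, against 40.3, 38.9 and 42.0 CPM in control libraries (log2 fold change -0.12, adjusted p 0.348, edgeR). ERLIN1 had 79.8, 83.2 and 84.2 CPM in RBM24 libraries, against 89.4, 86.0 and 90.2 CPM in control libraries (-0.10, adjusted p 0.373, edgeR). Every RBM24 library was below every control library for both, and neither was called.

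The 10 genes of isoprenoid and sterol side branches had a median of -0.04, with 9 negative. EBPL, a relative of EBP, had 58.6, 49.5 and 52.3 CPM in RBM24 libraries, against 60.1, 59.4 and 55.8 CPM in control libraries (-0.13). NUS1, a subunit of the enzyme that builds the dolichol chain, had 71.1, 70.1 and 75.6 CPM in RBM24 libraries, against 78.8, 74.6 and 77.7 CPM in control libraries (-0.09). Both overlapped between the groups. The 22 genes of fatty acid elongation, activation and lipid assembly had a median of -0.03, with 15 negative. ELOVL5, an elongase of polyunsaturated fatty acids, had 93.2, 96.9 and 108 CPM in RBM24 libraries, against 116, 105 and 109 CPM in control libraries (-0.15). HSD17B12, a reductase of the elongation cycle, had 72.4, 71.8 and 74.4 CPM in RBM24 libraries, against 84.9, 74.2 and 79.1 CPM in control libraries (-0.12). Their adjusted p were 0.282 and 0.336 (edgeR), and control replicate 1 was the highest library for both.

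The 11 tested genes of the sterol-sensing LXR receptors, cholesterol efflux, ester and storage had a median of -0.06, with 6 negative. NCEH1, which cleaves cholesterol esters, had 24.3, 28.8 and 31.7 CPM in RBM24 libraries, against 32.7, 31.2 and 31.03 CPM in control libraries (-0.16, adjusted p 0.400, edgeR). The sterol hydroxylase CYP27A1 was near the limit of detection, with 0.319, 0.240 and 0.260 CPM in RBM24 libraries, against 0.255, 0.130 and 0.143 CPM in control libraries (0.65, adjusted p 0.509, edgeR). The interval of CYP27A1 spanned -0.16 to 1.45, so at this depth its difference is poorly bounded.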

How the data were processed

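RNA-seq libraries came from CAL27 cells, 3 with RBM24 overexpressed and 3 with a control plasmid; columns marked OE_RBM24 and NC were read as these groups. HISAT2 was used with the GRCh38 genome, per the submitters' processing notes. No source used here names the counter, the annotation release or the strandedness. The deposited table of counts holds the authors' whole-number read counts per gene. The deposited FPKM table holds 31513 genes, which the authors had scaled by gene length and library total and rounded.

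The counts were fitted with edgeR 4.0.16 in R 4.3.3, with limma 3.58.1 and DESeq2 1.42.0 as alternatives; other steps used Python 3.11.15, pandas 2.3.3 and matplotlib 3.10.9. Genes kept by filterByExpr were scaled with TMM factors (0.976 to 1.02), and the groups were compared over all 17887 genes with the quasi-likelihood F test. P-values were adjusted with Benjamini-Hochberg over all tested genes and called under 0.05. Log2 fold changes are RBM24 over control, with an SE from the F statistic and a 95% interval on the test's degrees of freedom. Deviations are in log2 CPM (prior count 2). The common coefficient of biological variation was 0.0645, and counts of every pair of libraries differed by more than sampling noise (chi-square per gene 4.52 to 33.3). Arm values are means over genes and carry no p. The fit was tested on simulated counts.

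Coordinates, transcript GC content and overlaps come from GENCODE 29 on GRCh38, which need not be the authors' release; 31 of 31 genes matched. GC content is that of the longest transcript. Promoter windows come from RefSeq, GRCh38.p14; a gene counts as matching if any of its windows does, on either strand.

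The members and lists were chosen with earlier results of these data known. Values are given per library for RBM24, any gene called, the 4 SREBP machinery genes, the 4 of smallest p in each arm, the 3 of highest control FPKM and, in each related list, those called or else the 2 of smallest p; other genes with values per library were named after their values were seen. Alternatives were DESeq2 and its size factors, upper-quartile factors, total counts, other count filters, limma-voom, limma on FPKM after adding 1 or 0.1 and taking log2, a replicate block, leaving out each library and a correction for GC content.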

Additional observations from a re-analysis of the deposited data

How the results depend on the processing

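No gene of the 31 was called under any alternative but the one with no filter on low counts, where 2 were lower, HMGCS1 and STARD4, both of the sterol arm (305 genes of all called higher and 341 lower); the cause was not tested. All-gene calls were 46 higher and 4 lower with limma on log2(FPKM + 1), 57 and 5 on log2(FPKM + 0.1), 15 and 4 with limma on log2(FPKM + 1) unfiltered, and 320 and 212 with the correction for GC content. With total counts only they were 223 and 106. Leaving out 1 library at a time gave 61 to 171 higher and 29 to 198 lower, fewest without RBM24 replicate 2, and called none of the 31; the sterol arm median then lay between -0.11 and -0.06, the fatty acid arm median between -0.042 and 0.0074 and the machinery median between -0.039 and 0.012. Over 18 alternatives, 502 of 558 single-gene results kept their direction and side of the threshold, 54 changed sign and 2 became calls. The sterol arm median was negative in each of them; the fatty acid arm median was 0.015 with total counts, 0.019 on log2(FPKM + 1) with or without the filter and 0.019 on log2(FPKM + 0.1), where the machinery median was 0.014, 0.014 and 0.016. The fatty acid arm level was 0.024 with total counts and 0.022 on log2(FPKM + 1). The median over all genes moved too, from -0.0037 in the main fit to 0.026 with total counts. It was 0.014 on log2(FPKM + 1), 0.0048 on the same scale unfiltered and 0.027 on log2(FPKM + 0.1). The same 6 genes turned positive under total counts and FPKM, all near 0. With total counts MVK was 0.0073, SREBF2 0.020, SCAP 0.00097, ACLY 0.00043, FASN 0.022 and ELOVL6 0.0069. On log2(FPKM + 1), with or without the filter, MVK was 0.0066, SREBF2 0.022, SCAP 0.0058, ACLY 0.0038, FASN 0.027 and ELOVL6 0.0097. On log2(FPKM + 0.1) MVK was 0.0077, SREBF2 0.023, SCAP 0.0079, ACLY 0.0039, FASN 0.028 and ELOVL6 0.011. With the GC correction ACAT2 was -0.0029, PMVK -0.0082, NSDHL -0.00017, EBP -0.014 and ELOVL6 0.0031. Genes that changed sign when 1 library was left out ranged over -0.040 to 0.042 (ACAT2), -0.052 to 0.014 (MVK), -0.043 to 0.054 (PMVK), -0.079 to 0.017 (CYP51A1), -0.044 to 0.041 (NSDHL), -0.049 to 0.055 (EBP), -0.038 to 0.067 (SREBF1), -0.039 to 0.0073 (SREBF2), -0.093 to 0.016 (SCAP), -0.068 to 0.035 (FASN), -0.038 to 0.024 (SCD), -0.065 to 0.019 (ELOVL6) and -0.036 to 0.073 (FADS2). The replicate numbers share only a number (correlations of deviations 0.0072, 0.056 and -0.00039); with a replicate block 158 genes were called higher and 135 lower, and 0 of the 31. The sterol element was matched in 14 genes with 1 mismatch, against 1 exactly. With 3 libraries a group, the 95% intervals of the 31 genes reach from -0.41 to 0.17, and sizes within a gene's interval cannot be told apart here.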

Other observations

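Several further genes overlap the 31 by gene coordinates, and how reads in the shared bases were counted is not stated in any source used. TCP1, a chaperonin subunit at 397 CPM, overlaps ACAT2 on the opposite strand over 558 bases, and MMAB, at 44.3 CPM, overlaps MVK over 620 bases. RAI1, at 49.7 CPM, overlaps SREBF1 on the opposite strand over 1055 bases. On the same strand CTB-161K23.3, at 14.5 CPM, overlaps CYP51A1 over 3030 bases and VPS51, at 107 CPM, overlaps TM7SF2 over 16 bases. None of these partners was called, with log2 fold changes of 0.0028 for TCP1, -0.10 for MMAB, -0.0020 for RAI1, 0.06 for CTB-161K23.3 and -0.02 for VPS51.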
